A study of Mus musculus with 2 samples.

Results

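The leukocyte integrins and their vascular adhesion partners were examined in glomeruli, the filtering tufts of the kidney, of male KK/Ta mice aged 20 weeks. Both diet groups are of KK/Ta, an inbred line prone to obesity and diabetes. The members were 10 genes, 5 of the leukocyte side (Itgb2, Itgal, Itgam, Itgax and Selplg) and 5 of the vessel wall (Icam1, Icam2, Vcam1, Selp and Sele). Every probe set whose platform gene symbol was exactly one of these names was taken, which gave 15 of the 45101 probe sets of the array, 6 leukocyte and 9 vascular. A probe set is a group of short probes for 1 transcript, and its signal is a brightness on a linear scale. The mice had received a high-fat diet (HFD, 1 array) or a normal chow diet (Chow, 1 array). The series design text mentions 3 mice, but no label says whether RNA of several animals was combined on an array or how long the diets were fed.

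Leukocytes leave the blood in steps. Selectins on activated endothelium (Selp, Sele) catch rolling cells through carbohydrates on PSGL-1, the product of Selplg. Integrins that share the beta-2 chain, the product of Itgb2, then bind ICAM proteins: the alpha chain from Itgal makes LFA-1, that from Itgam makes Mac-1, and that from Itgax the CD11c integrin of dendritic cells and macrophages. Vcam1 is bound by another integrin, made of the Itga4 and Itgb1 chains. Icam2 is carried by resting endothelium, whereas Icam1, Vcam1 and Sele are classical targets of NF-kB that cytokines induce. In kidney, Icam1 and Vcam1 are also made by epithelial cells of tubules and of Bowman's capsule.

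Promoter sequence from RefSeq (build GRCm38.p6) was found for 5 of the 10 genes: Icam1, Sele, Selp, Itgam and Itgax. The windows shown are those of Icam1 and Sele, both of the plus strand, as the 250 bases before the annotated start, because these genes stood for the inducible part of the vessel wall in the values below. They lie at chr9:21015690-21015939 and chr1:164047984-164048233. Capitals mark GGANNTTCC, a form of the NF-kB motif that was chosen after the windows had been seen.

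Icam1: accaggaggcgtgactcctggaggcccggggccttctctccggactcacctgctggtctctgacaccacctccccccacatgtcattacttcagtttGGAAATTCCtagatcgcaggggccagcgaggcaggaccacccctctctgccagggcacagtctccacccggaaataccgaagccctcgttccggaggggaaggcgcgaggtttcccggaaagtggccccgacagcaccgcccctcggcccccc

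Sele: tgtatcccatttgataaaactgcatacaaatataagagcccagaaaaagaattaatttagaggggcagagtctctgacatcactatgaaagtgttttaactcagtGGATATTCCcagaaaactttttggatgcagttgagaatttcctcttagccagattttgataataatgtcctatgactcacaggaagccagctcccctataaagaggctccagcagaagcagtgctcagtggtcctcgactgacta

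The marked stretch began 153 bases before the start in Icam1, where the pattern is met on both strands, and 145 bases before it in Sele. On either strand it was present in 3.59% of all 32851 windows of this length and in neither Selp, Itgam nor Itgax. Another form, which opens with GGG and after 3 further bases closes with TTCC, was found in 4.65% of all windows and in none of these 5, which says only that these letters are not in those windows. A match describes letters and is no evidence of binding.

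On the leukocyte side the signals were low and Itgb2 and Selplg exceeded their Chow values at least 2-fold. On the vascular side 6 of 9 probe sets were higher and 3 lower in HFD. The 7 of these measured on both arrays differed by less than 2-fold, and the other 2, both of Selp, have only lower bounds under 2-fold. To take differences, each array was centred on its median and values under a floor, that median itself (a signal of 42.3 in HFD and 44.9 in Chow), were raised to it. Where 1 of the values lay under the floor, the difference is a lower bound, written as at least N-fold. Of the 15 probe sets 12 passed the floor on at least 1 array: 8 on both arrays, 4 on the HFD array only and 0 on the Chow array only. Over all 45037 probe sets other than controls, 2.00% passed in HFD alone and, by construction, 2.00% in Chow alone, while 48.0% passed on both arrays. A probe set that passed through the HFD array alone had to be higher there.

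Because each diet has 1 array, the diet was not tested and no replicates check a value: every difference describes these 2 RNA preparations. A probe set was counted by size, at least 2-fold. Of the 12 that passed the floor, 2 (Itgb2 and Selplg) met it as higher in HFD, and this rule called 0.615% of all 23419 probe sets above the floor. At least 2-fold lower were 0 of the 12, against 0.295% of all. Higher by any amount were 9 of the 12, against 56.6%, but 4 of the 9 passed in HFD alone and so had to be higher. The excess over 56.6% is therefore not read as a result about the members. In all probe sets the calls numbered 144 higher and 69 lower. That split was 106 higher and 96 lower without centring and 70 higher and 231 lower with the arrays centred on their Gapdh and beta-actin controls. The count of 2 members higher and 0 lower was the same under both of those scalings. With the floor at the 30th percentile it was 5 higher, with 2 of the added ones from Selp and 1 from Itgal. The share of all probe sets at that floor was not computed. As a measure of precision, the scatter of differences over probe sets of like signal (scaled median absolute deviation in 10 bins of mean signal) is given beside values. It ran from 0.37 log2 units in the second-dimmest bin to 0.16 in the brightest, and holds noise and real differences together.

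**Figure D1:**
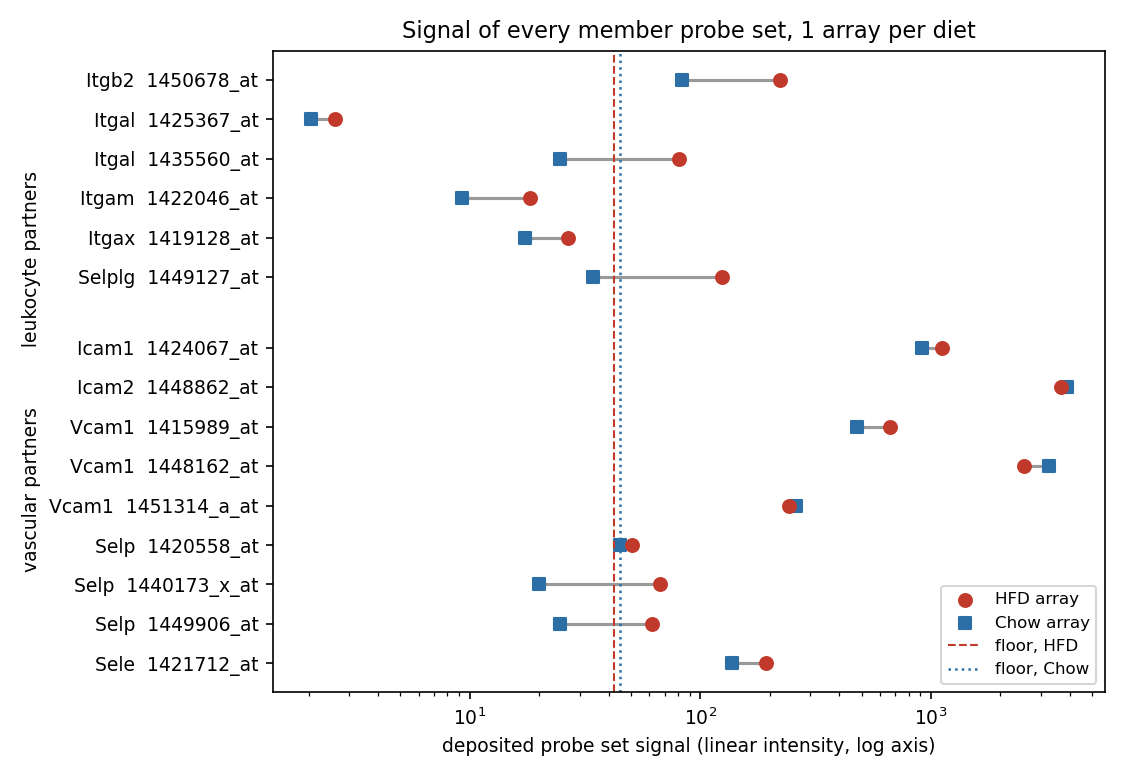
Deposited signal (linear intensity on a log axis) of each of the 15 member probe sets in HFD (circles) and Chow (squares), with the leukocyte partners above and the vascular partners below. The vertical lines are the floors, 42.3 for HFD and 44.9 for Chow. Each of the 6 leukocyte probe sets lies further right in HFD, and Itgam, Itgax and 1 of the Itgal probe sets lie left of both floors.

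Itgb2, the shared beta-2 chain without which none of the leukocyte integrins here reaches the surface, had a signal of 221 in HFD and 83.4 in Chow (probe set 1450678_at). It was 2.81-fold higher in HFD, a difference of 1.49 log2 units where the scatter of probe sets of like signal was 0.32. Itgb2 is the single leukocyte member above the floor on both arrays, so its fold is measured and not bounded. In bulk RNA, more leukocytes in the preparation and more transcript per leukocyte cannot be told apart, and this holds for each leukocyte gene.

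The alpha chains that pair with it were dim. Itgal, the LFA-1 chain found on most leukocytes, had 80.4 in HFD and 24.6 in Chow in probe set 1435560_at, and was at least 1.90-fold higher in HFD. Its second probe set, 1425367_at, had 2.61 in HFD and 2.04 in Chow and was under the floor on both arrays. One of the Itgal probe sets therefore separated the arrays and the other reported no usable signal.

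Itgam, the Mac-1 chain of neutrophils, monocytes and many macrophages, had 18.2 in HFD and 9.24 in Chow. Itgax, the CD11c chain, had 26.6 in HFD and 17.4 in Chow. Both genes have 1 probe set on this array, and both were under the floor in HFD and in Chow, so no fold is given for either. These signals stood at the 36.5th (HFD) and 24.9th (Chow) percentile of their arrays for Itgam and at the 42.9th (HFD) and 35.0th (Chow) for Itgax. The deposited signal was higher in HFD for these 3 probe sets under the floor as well, but values there have no order.

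Selplg, whose product is the leukocyte ligand of P-selectin, had 124 in HFD and 34.1 in Chow. It passed the floor on the HFD array only and was at least 2.93-fold higher in HFD. The bound of 1.55 log2 units is 4.68 times the scatter of the dimmest bin (0.33), and the floor itself narrows differences in that bin. Spn, encoding the leukocyte sialomucin CD43, had 177 in HFD and 90.3 in Chow and was 2.08-fold higher. Without centring its difference was 0.97 and with the Gapdh and beta-actin controls 0.82, both under 2-fold.

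Vascular partners had signals above the floor on both arrays for Icam1, Icam2, Sele, every Vcam1 probe set and 1 of 3 Selp probe sets. Brightness depends on the probes as well as on the transcript, so the order of 1 gene's signal against another's is not set here. What can be compared is each probe set with itself on the other array.

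Icam1, the inducible ligand of LFA-1 and Mac-1, had 1119 in HFD and 918 in Chow. It was 1.29-fold higher in HFD, a difference of 0.37 log2 units, 1.99 times the scatter at its signal (0.19). Icam2, the ligand of LFA-1 on resting endothelium, had 3662 in HFD and 3887 in Chow. After centring it differed by -0.0026 log2 units, far less than the scatter of 0.16. With this centring the inducible ICAM lay outside its scatter and the constitutive one within it. Centred on the Gapdh and beta-actin controls, Icam1 stood at 0.13, within its scatter, and Icam2 at -0.24, outside its own. That contrast therefore depends on the scaling, and it was not tested.

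Vcam1, the ligand of the Itga4 and Itgb1 integrin, had 3 probe sets that went different ways. Probe set 1415989_at had 666 in HFD and 480 in Chow and was 1.47-fold higher (0.56 log2 units, scatter 0.20). The brightest, 1448162_at, had 2529 in HFD and 3242 in Chow and was 1.21-fold lower (-0.27, scatter 0.16). The dimmest, 1451314_a_at, had 241 in HFD and 259 in Chow and differed by -0.021 (scatter 0.24). No single direction for Vcam1 can be read from these arrays. Each of the 3 kept its own sign under all 8 alternative scalings, floors and offsets. The other floors left these values unchanged, and the other scalings and the offset lowered them all. The kept negative signs are therefore no check.

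Both selectins were dim to moderate and stood higher in HFD in each probe set. Sele, made by cytokine-activated endothelium, had 192 in HFD and 137 in Chow, a 1.48-fold higher value (0.57 log2 units, scatter 0.28). For Selp, which endothelium and platelets store in granules, probe set 1420558_at had 50.5 in HFD and 44.9 in Chow and was 1.19-fold higher, less than the scatter of 0.33. Probe set 1449906_at had 61.8 in HFD and 24.6 in Chow and was at least 1.46-fold higher. Probe set 1440173_x_at, whose suffix marks probes that may also match other transcripts, had 66.6 in HFD and 20.0 in Chow and was at least 1.57-fold higher. With the floor at the 30th percentile both of these bounds became measured differences above 2-fold, 1.41 log2 units (1449906_at) and 1.82 (1440173_x_at). All 3 Selp signals in HFD lay close above the floor.

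**Figure D2:**
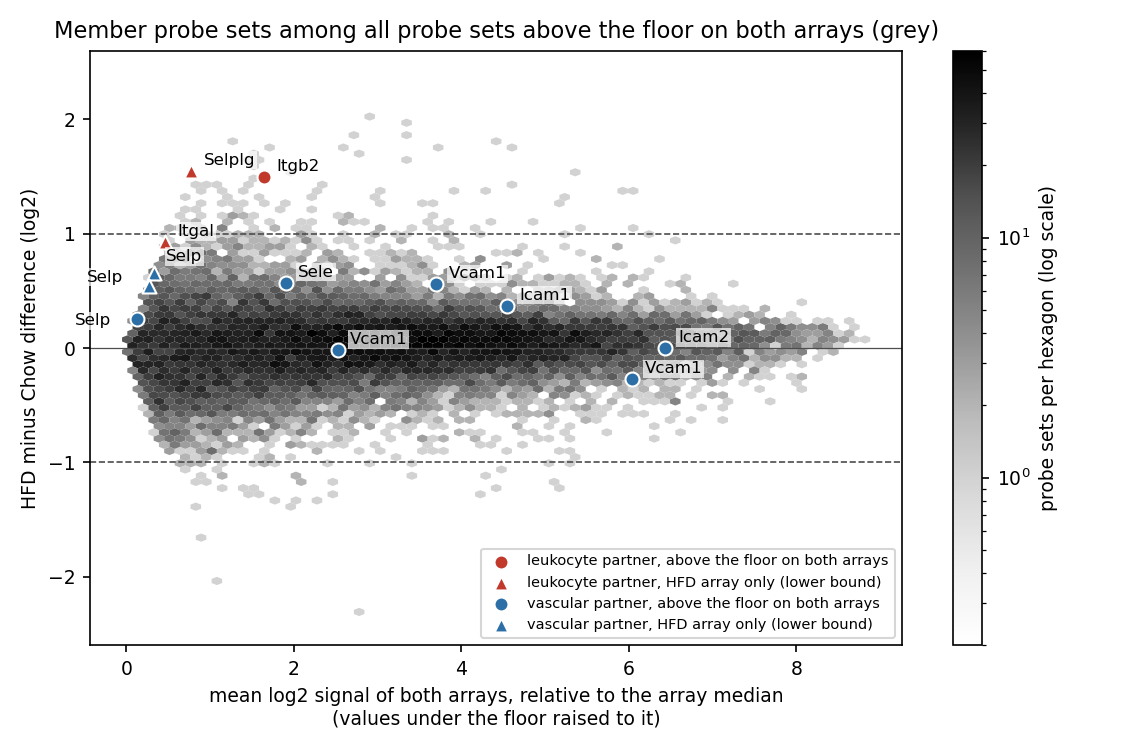
HFD minus Chow difference (log2) against the mean log2 signal of both arrays relative to the array median. Grey hexagons count all 21617 probe sets above the floor on both arrays, red marks are leukocyte and blue marks vascular members, triangles are lower bounds, and dashed lines mark 2-fold. Itgb2 (1.49) and Selplg (at least 1.55) lie above the upper dashed line, while the vascular members lie between -0.27 and 0.65, with the 2 Selp triangles as bounds.

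Set against its partner, each leukocyte gene above the floor had the larger difference wherever a gap could be given. Itgb2 exceeded Icam1 by 1.12 log2 units and Icam2 by 1.49. Itgal (1435560_at) exceeded Icam1 by at least 0.56 and Icam2 by at least 0.93. Selplg exceeded Sele by at least 0.98 and the Selp probe set measured on both arrays (1420558_at) by at least 1.30. That Selp probe set counts as measured by a Chow signal of 44.92 against a floor of 44.87. The other Selp probe sets are bounds themselves, so their gap to Selplg has no limit. With the floor at the 30th percentile they were measured, at 1.82 (1440173_x_at) and 1.41 (1449906_at), beside 1.94 for Selplg. The contrast within this pair therefore depends on the floor and the probe set. The median difference was 1.49 over the 3 leukocyte probe sets that passed the floor, 2 of them through the HFD array alone. It was 0.37 over the 9 vascular ones, and 0.038 over all 23419 probe sets above the floor.

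The Vcam1 pair did not share this pattern. Itga4, named here after its values were seen because its product binds Vcam1, had 863 in HFD and 958 in Chow in its brightest probe set and differed by -0.067. Its other probe sets above the floor differed by -0.12 and -0.027, all within the scatter. Itgb1, the partner chain of Itga4 that most cell types make, was named for the same reason and had 5497 in HFD and 4589 in Chow in its brightest probe set, a difference of 0.34 (scatter 0.16). The Itga4 difference minus that of Vcam1 was -0.62 (1415989_at), 0.21 (1448162_at) and -0.046 (1451314_a_at).

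Most markers of leukocytes and macrophages moved with the leukocyte members. Ptprc, the pan-leukocyte antigen CD45, had 467 in HFD and 149 in Chow, a difference of 1.73, and Itgb2 was 0.24 below it. Of 17 pan-leukocyte and macrophage markers, 15 passed the floor, and 5 of them passed in HFD alone and so had to be higher there. The 10 above the floor on both arrays were all higher in HFD, 6 of them at least 2-fold. With bounds included 8 were at least 2-fold higher, and 5 with the arrays centred on Gapdh and beta-actin. Over all 11360 genes above the floor, 62.2% were higher by any amount and 0.731% at least 2-fold. The median difference of the 15 was 1.12. The summed signal of all 17 was 6938 in HFD and 4728 in Chow. Of this, Mrc1, the brightest marker, gave 2294 in HFD and 2268 in Chow, a difference of 0.10. Other leukocyte classes gave little signal. Of 8 neutrophil markers matched on the array 2 passed the floor: S100a8 in Chow only (36.3 in HFD and 64.6 in Chow) and Csf3r in HFD only (52.5 in HFD and 9.09 in Chow). Of 9 T and NK cell markers Cd8a alone passed (-0.18), of 4 B cell markers Ighm alone (0.54), and of 7 dendritic cell markers Zbtb46 alone (-0.20), which endothelium also makes. Summed signals were 185 in HFD and 193 in Chow for the neutrophil list, 112 in HFD and 109 in Chow for T and NK cells, 116 in HFD and 78.5 in Chow for B cells, and 922 in HFD and 1057 in Chow for the dendritic list. No marker was listed at 0, but values under the floor, which have no order, enter these sums. Zbtb46 makes most of the dendritic sum (816 in HFD and 991 in Chow). The part of any of these cell classes in the Itgb2, Itgal and Selplg values was not tested.

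Markers of the vessel wall differed less. All 15 endothelial markers passed the floor, 1 of them (Vwf) at least 2-fold higher, against 0.731% of all genes. In HFD 12 were higher, against 62.2%, and the median of the 15 was 0.18, against 0.064. Their summed signal was 60693 in HFD and 58611 in Chow. Pecam1, the endothelial adhesion molecule CD31, had 1016 in HFD and 926 in Chow, a difference of 0.22. Relative to Pecam1, Icam1 stood 0.15 higher, Sele 0.35 higher and Selp (1420558_at) 0.036 higher, and Icam2 differed by -0.22. The other Selp probe sets stood at least 0.44 (1440173_x_at) and at least 0.33 (1449906_at) above Pecam1. The Vcam1 probe sets stood on both sides of Pecam1, at 0.34 (1415989_at), -0.24 (1451314_a_at) and -0.49 (1448162_at). Of 5 platelet markers matched, 3 passed the floor and were higher, Ppbp by 0.61, Itga2b by 0.46 and Pf4 by 0.35. The summed signal of all 5 was 605 in HFD and 466 in Chow. Platelets carry Selp, and their part in its values was not tested.

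**Figure D3:**
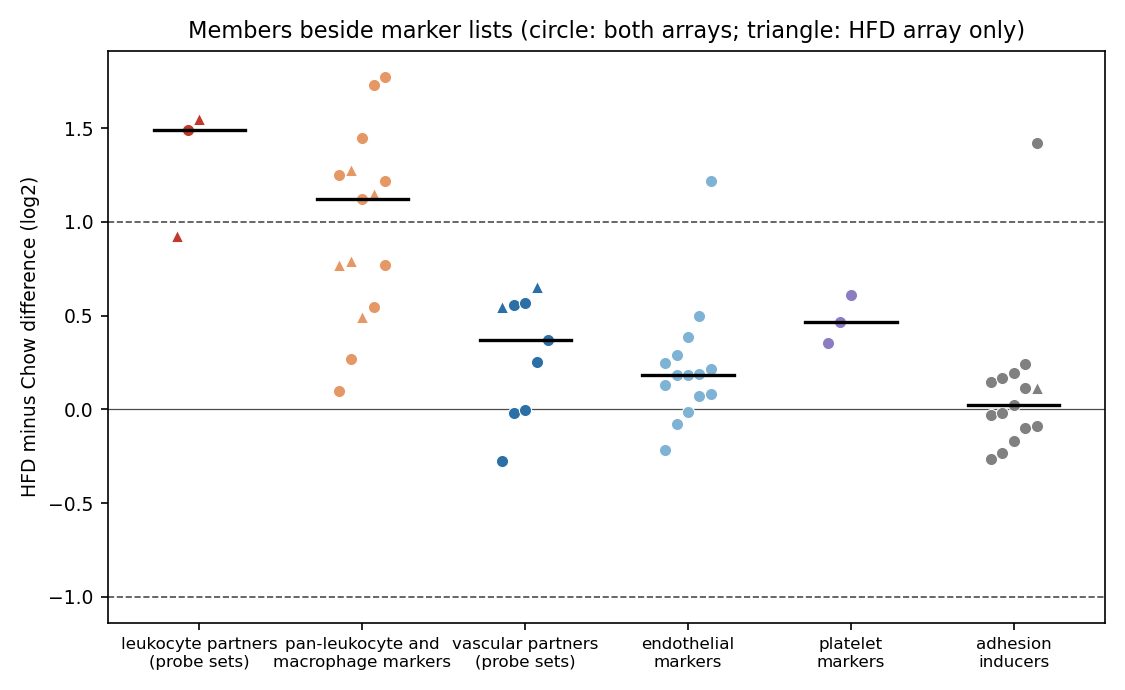
HFD minus Chow difference (log2) of the member probe sets and of the genes of 4 lists, for features above the floor; black bars are medians, triangles are bounds from the HFD array alone and dashed lines mark 2-fold. Medians are 1.49 for the leukocyte partners, 1.12 for leukocyte and macrophage markers, 0.37 for the vascular partners and 0.18 for endothelial markers. They are 0.46 for platelet markers and 0.020 for the list of inducers of vascular adhesion molecules, which also holds genes that restrain them. The other lists are not drawn.

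The preparations held glomerular markers at high signal: Nphs1, the podocyte gene for nephrin, had 5421 in HFD and 5427 in Chow, and Ehd3 of glomerular endothelium had 14651 in HFD and 14184 in Chow. Tubule markers were present too: 5 of 6 proximal genes were higher in HFD and 1 lower (median 0.51), and 5 of 5 distal genes were higher (median 0.71). Of all genes above the floor 62.2% were higher, with a median of 0.064. The 2 parietal epithelial markers that passed had a median of 0.31, the 3 mesangial ones 0.077 and the 4 podocyte ones -0.019. Summed signals were 4429 in HFD and 4195 in Chow for the proximal list, 7960 in HFD and 5575 in Chow for the distal list, and 412 in HFD and 330 in Chow for the parietal list. Tubule and parietal cells can make Icam1 and Vcam1, and their part in those values was not tested. Controls of the arrays, 6 probe sets of Gapdh and beta-actin, differed by 0.14 to 0.28 after centring, and centring on them shifts every difference by -0.24. With that shift Icam1 stood at 0.13, and no member changed sign.

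Among genes of the pathway lists above the floor on both arrays, Il1b differed most (1.42). It stood below Itgb2 (1.49) by less than the scatter of 0.32. Of 18 matched partners and activators of leukocyte integrins, 14 passed the floor and 10 were higher, against 62.2% of all genes. At least 2-fold higher or lower were 0, against 0.731% and 0.158% of all genes. The largest differences were those of Fyb (0.94, 83.6 in HFD and 46.0 in Chow), an adaptor that links receptor signals to integrin activation in leukocytes, and Itga9 (0.40). Fermt3, encoding kindlin-3, which blood cells need to activate beta-2 integrins, had 633 in HFD and 680 in Chow (-0.021). Fermt3 is named after its values were seen.

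Of 19 further vascular adhesion and junction genes, 15 passed, 11 were higher, close to the 62.2% of all genes, and 1 by 2-fold. That gene was Vwf, encoding von Willebrand factor, which is stored in endothelial granules with P-selectin, at 116 in HFD and 52.8 in Chow (2.32-fold, but 0.98 log2 units and under 2-fold with the Gapdh and beta-actin controls). Mcam differed by 0.40. Enzymes and carriers of selectin ligands gave 12 of 14 above the floor, 9 of them higher and 1 by 2-fold, the sialomucin Spn. The shares of all genes were 62.2% higher and 0.731% at least 2-fold higher. St3gal4, a sialyltransferase that helps build selectin ligands, had 269 in HFD and 179 in Chow (0.67), while Fut4 and Fut7, the fucosyltransferases of those ligands, were under the floor on both arrays.

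The list of inducers of vascular adhesion molecules also held genes that restrain them, such as Klf2, so its counts mix both roles. Of 18 matched, 15 passed the floor, 8 were higher and 7 lower, with a median of 0.020. Of all genes 62.2% were higher. Il1b, a cytokine that induces Sele, Icam1 and Vcam1, was 2.68-fold higher (120 in HFD and 47.3 in Chow), and myeloid cells make it. Klf2, an endothelial factor that restrains Vcam1 and Sele, had 4626 in HFD and 5884 in Chow (-0.26). Tnf, Il1a and Lta were under the floor on both arrays. The sheddases Adam17 and Adam10, which cut adhesion molecules from the cell surface, differed by 0.17 and 0.061.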

How the data were processed

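The authors deposited 1 linear intensity per probe set and array, from Affymetrix arrays hybridised with biotin-labelled cRNA of two-cycle labelling, per the labels' protocols. GeneSpring 7.3.1 is named for their comparison, per the series design text. No label states how probes were summarised or arrays scaled, and detection calls were not used here. The arrays' number, 1 per diet, limits the precision.

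From these intensities, 64 control probe sets were set aside, log2 values were centred on each array's median (adding 0.083 to every HFD minus Chow difference) and floored at the 50th percentile. The platform annotation named 1 gene for 34945 probe sets, several for 932 and none for 9160. No probe set that named several genes held a member. All 10 members matched RefSeq by Entrez identifier. Other genes were represented by their probe set with the highest mean signal.

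The members, gene lists and rules were chosen with earlier results of these data known. Named were every member probe set, Ptprc, Pecam1 and, from each pathway list, the 2 genes with the largest difference above the floor on both arrays. Names outside this rule were chosen after their values were seen: Mrc1, S100a8, Csf3r, Cd8a, Ighm, Zbtb46, Ppbp, Itga2b, Pf4, Nphs1, Ehd3, Itga4, Itgb1, Fermt3, Fut4, Fut7, Tnf, Il1a and Lta. No test was run, since each diet has 1 array. The procedure was tested on simulated data, with changes placed only in probe sets above the floor on both arrays. Differences that are bounds were therefore not checked. Alternatives were other scalings (none, quantile, loess with span 0.3, Gapdh and beta-actin controls), floors, an added offset, folds of 1.5 and 3, and 3 choices of probe sets. Python 3.11.15, pandas 2.3.3 and statsmodels 0.14.6 were used.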

Additional observations from a re-analysis of the deposited data

How the results depend on the processing

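The count of 2 members at least 2-fold higher in HFD held under every scaling tried. The choices of probe sets could not change it: Itgb2 and Selplg have 1 probe set each, and no other member difference reached 2-fold. The count was 5 with the floor at the 30th percentile, 6 with no floor, 5 with the 25th percentile added before the log2, and 0 with the floor at the 70th percentile. In each of the settings with 5 or 6, 2 were vascular, Selp 1440173_x_at (1.44 to 1.82 log2 units) and 1449906_at (1.14 to 1.41). It was 4 at a threshold of 1.5-fold and 0 at 3-fold. The share of all probe sets was not computed for these floors, the offset or these folds. Counts under them are therefore not read as particular to the members. No alternative gave a member 2-fold lower. With the 70th percentile floor 1 leukocyte probe set was left, that of Itgb2, above the floor in HFD alone. The leukocyte median there, 0.25, is therefore the lower bound of Itgb2. With the added offset the leukocyte median was 1.01. The vascular median was 0.023 with the 70th percentile floor, which leaves 6 vascular probe sets: the 3 of Selp drop out and the Chow value of Sele is raised to the floor. Of 91 recomputed member differences 74 moved by less than the scatter of like signals, 17 by more, and none of the differences of 2-fold or more changed sign. A change of floor leaves a difference as it was where both signals stay above it, so part of the 74 could not move. Itgb2 ran from 0.25 (a lower bound, with the 70th percentile floor) to 1.49. Selplg ran from 1.31 to 1.94, with no value at the 70th percentile floor, under which it fell on both arrays. Centrings of Spn, Vwf, Il1b and the leukocyte marker count were added after the data were seen, and Il1b stayed above 2-fold (1.19 to 1.34). Dim signal limits Itgal, Itgam, Itgax, Selplg and Selp. It also limits Il1b and Fyb, whose Chow signals of 47.3 and 46.0 lie just above the floor of 44.9.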
